A study of Mus musculus with 2 samples.

Results

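The small nucleolar RNAs and small Cajal body RNAs of the mouse cortex were described from 150 of the 55536 annotated genes in the deposited tables, chosen as every gene whose symbol begins with Snord, Snora or Scarna. There were 99 Snord genes, 42 Snora genes and 9 Scarna genes. The 150 genes carry 147 distinct symbols, because 3 symbols each belong to a pair of gene entries. The tissue was left cerebral cortex, in 2 samples labelled as female B6CASTF1/J, a first-generation cross of C57BL/6 and CAST mice. The age was 25 days, and the labels name no treatment. Total RNA was measured. The samples form 1 group, replicates 1 and 2, so that the only contrasts are between members, within a library, and between the libraries. The labels number the tissues as coming from different animals but cite 1 donor identifier for both, so the spread between the libraries may cover preparation only. The RNA input was 300 ng for either library, to which ERCC spike-in RNAs were added.

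Small nucleolar RNAs guide the chemical modification of other RNAs by base pairing. Box C/D RNAs, named Snord, bind the methyltransferase fibrillarin and direct ribose methylation, and H/ACA RNAs, named Snora, bind the pseudouridine synthase dyskerin and direct the conversion of uridine to pseudouridine. Most of them act on ribosomal RNA in the nucleolus, and a few are needed for the cleavage of its precursor. Small Cajal body RNAs, named Scarna, carry either or both kinds of domain, are held in the Cajal body and act on the spliceosomal RNAs. In mammals most of these RNAs are cut out of introns of longer host genes. Brain is known for the large imprinted Snord116 array, whose targets are not established.

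The annotated sequences show how these classes differ, and are given for members on which the results turn, as GENCODE M21 has them (mm10, RNA strand, written with T). The first set holds box C/D members that received very different counts, the barely counted Snord118 and 1 copy of Snord116. Capitals mark each match to the box C letters TGATGA and the box D letters CTGA, which can overlap where both occur together.
Snord17: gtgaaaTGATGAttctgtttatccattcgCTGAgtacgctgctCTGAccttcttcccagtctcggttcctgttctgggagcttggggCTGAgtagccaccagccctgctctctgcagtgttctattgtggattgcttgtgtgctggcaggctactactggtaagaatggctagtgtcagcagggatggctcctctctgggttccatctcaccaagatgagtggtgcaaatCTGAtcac
Snord15b: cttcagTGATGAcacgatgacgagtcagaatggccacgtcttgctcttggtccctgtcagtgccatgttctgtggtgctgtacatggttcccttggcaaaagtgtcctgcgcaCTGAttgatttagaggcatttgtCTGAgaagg
Snord15a: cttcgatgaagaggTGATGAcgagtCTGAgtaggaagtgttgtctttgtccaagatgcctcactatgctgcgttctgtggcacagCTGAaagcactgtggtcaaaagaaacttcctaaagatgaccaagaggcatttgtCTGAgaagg
Snord22: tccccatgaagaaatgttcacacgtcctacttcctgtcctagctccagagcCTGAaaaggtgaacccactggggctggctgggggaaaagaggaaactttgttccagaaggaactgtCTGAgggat
Snord118: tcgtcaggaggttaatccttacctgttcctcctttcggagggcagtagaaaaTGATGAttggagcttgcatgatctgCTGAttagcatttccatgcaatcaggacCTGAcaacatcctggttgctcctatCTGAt
Snord116l1: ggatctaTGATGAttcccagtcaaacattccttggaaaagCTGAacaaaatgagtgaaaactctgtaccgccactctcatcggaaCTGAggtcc

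They lie at chr2:144265979-144266216 (minus strand) for Snord17, chr7:99479563-99479707 (minus) for Snord15b, chr7:99482785-99482932 (minus) for Snord15a, chr19:8725866-8725991 (plus) for Snord22, chr11:69073427-69073561 (plus) for Snord118 and chr7:59894620-59894713 (minus) for Snord116l1. The second set holds Scarna13, a Cajal body RNA among the 4 most counted of its class, and the Snora73 pair, and capitals mark the ACA letters that stand 3 bases before the end.
Scarna13: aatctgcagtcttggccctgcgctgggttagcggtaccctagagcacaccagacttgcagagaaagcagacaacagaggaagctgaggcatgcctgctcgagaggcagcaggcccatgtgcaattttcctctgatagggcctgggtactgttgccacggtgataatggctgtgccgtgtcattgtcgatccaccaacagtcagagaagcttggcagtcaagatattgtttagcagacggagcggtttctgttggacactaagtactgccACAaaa
Snora73b: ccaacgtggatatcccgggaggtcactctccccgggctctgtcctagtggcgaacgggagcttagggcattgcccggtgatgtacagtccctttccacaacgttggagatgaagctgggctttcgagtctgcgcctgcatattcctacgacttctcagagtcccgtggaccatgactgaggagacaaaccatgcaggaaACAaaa
Snora73a: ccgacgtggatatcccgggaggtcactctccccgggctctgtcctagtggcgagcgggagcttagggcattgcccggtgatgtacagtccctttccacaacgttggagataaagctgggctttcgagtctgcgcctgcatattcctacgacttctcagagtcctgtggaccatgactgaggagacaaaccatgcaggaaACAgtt

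Scarna13 lies at chr12:105031075-105031349 (minus), Snora73b at chr4:132352322-132352526 (minus) and Snora73a at chr4:132352775-132352979 (minus). The Snora73 RNAs were identical at 198 of 205 aligned positions, 96.6%, with a longest shared run of 56 nt. Snord15a and Snord15b matched at 107 of 162 aligned positions, 66.0%, with a longest shared run of 21 nt.

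TGATGA and the terminal ACA were common in their named classes and rare in the other transcripts compared, where the shorter CTGA was frequent. CTGA occurred in all 99 Snord sequences, against 32.6% of 2990 other annotated transcripts of at least 60 and under 110 nt, and TGATGA occurred in 75 of 99 Snord sequences, against 2.14% of those transcripts. On the opposite strand of the Snord sequences TGATGA occurred in 1 of 99. ACA at exactly 3 bases from the end occurred in 35 of 42 Snora sequences, 83.3%, in 0 of 99 Snord sequences and in 1.64% of 792 other transcripts of at least 120 and under 150 nt. Scarna sequences were mixed, with TGATGA in 6 of 9, TGATGA and CTGA in 5 and the terminal ACA in 2. Each match is a match of letters in the annotated sequence.

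The libraries held 31191535 expected counts over annotated genes in replicate 1 and 27079700 in replicate 2. An expected count is the authors' estimate of reads per gene, which need not be whole. The 150 members together received 12621 and 10132 of them, which is 0.0404616% and 0.0374155%. Markers of cortical cells were present: the excitatory neuron marker Slc17a7 had a TPM (a level per effective length, scaled to the library) of 617 ± 30.8 (SD, n = 2 throughout), and the 4 markers of that list were all above a TPM of 1.

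No member shorter than 100 nt received a count. In the alignment-based tables the effective length, the number of positions at which a read could start, equals the annotated length less 100 nt plus 1, and is listed as 0 for all 89 members under 100 nt. None of these 89 had a count in either library, and neither did any of the 2398 annotated genes of that length. They comprise 87 of the 99 Snord genes and 2 of the 9 Scarna genes, the shortest being Snord37 with 64 nt. A value of 0 for these members sets no limit on their abundance, since no read could be assigned to them. All 42 Snora genes, 12 Snord genes and 7 Scarna genes were 100 nt or longer, and the median lengths of the classes were 84 nt for Snord, 132.5 nt for Snora and 140 nt for Scarna.

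**Figure D1:**
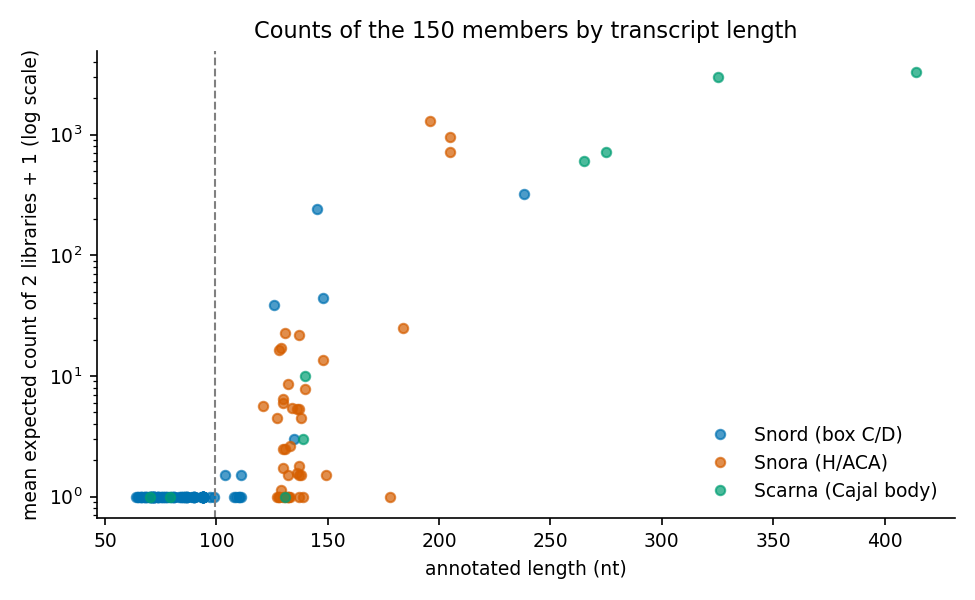
Annotated length of each of the 150 members (x axis, nt) against its mean expected count over the 2 libraries plus 1 (y axis, log scale), coloured by class, with a dashed line at 100 nt. All 89 members left of the line have no counts, and the 7 members of 200 nt or longer all have at least 241 counts in each library.

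Among the 61 members of 100 nt or longer, 17 had at least 10 expected counts in both libraries and are called counted here. By the same rule 33.7% of all annotated genes of 100 nt or longer were called, and 32.2% of annotated genes of any length. The 17 were 4 Snord, 9 Snora and 4 Scarna genes. Another 26 members had counts but fewer than 10 in at least 1 library, and 18 had none. The upper limit at 0 counts is 3 counts, or 0.0962 CPM (counts scaled to the library's annotated total) in replicate 1 and 0.111 CPM in replicate 2, and covers counting error only.

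Within a length range the named members were counted more often than other entries of their type. Of the 51 members of at least 100 and under 150 nt 8 were counted (15.7%), against a background of 1.16% of all annotated genes of that length and 24 of 981 other snoRNA and scaRNA entries (2.45%). Of the 3 members of at least 150 and under 200 nt 2 were counted, against a background of 4%. All 7 members of 200 nt or longer were counted, against 36.6% of annotated genes and 14 of 32 other snoRNA and scaRNA entries. Genes are not replicates, so these shares are given without a test. The shortest counted member was Snord22 with 126 nt. The longest member without 10 counts was Snora81 with 178 nt, named after its values were seen, which had 0 counts in both libraries. The whole Snora81 sequence also lies inside an annotated transcript of its host Eif4a2, a translation factor gene, and that transcript received 234 and 208 counts.

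**Figure D2:**
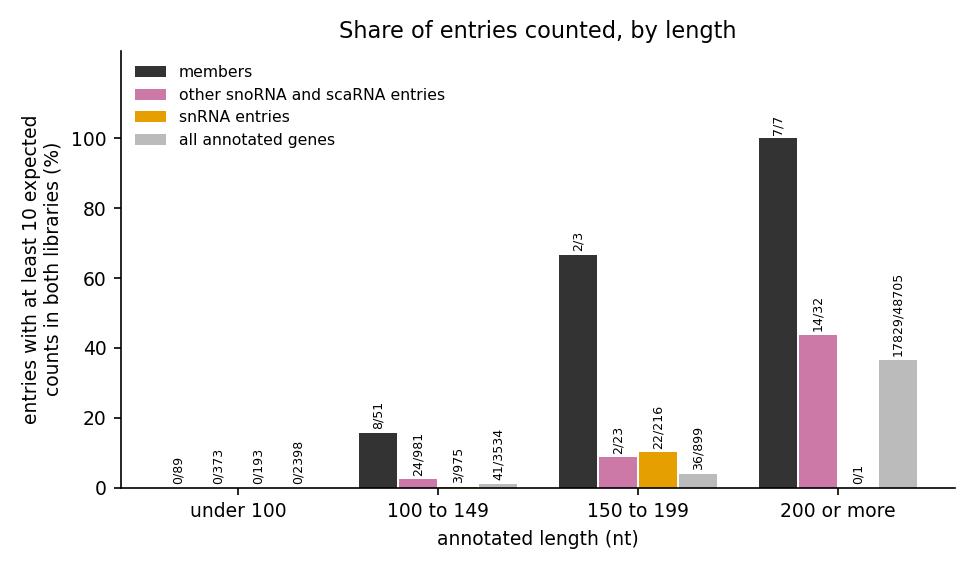
Percent of entries with at least 10 expected counts in both libraries (y axis) by annotated length (x axis, nt) for the 150 members, other snoRNA and scaRNA entries, snRNA entries and all annotated genes, with the number counted over the number of entries above each bar. No entry under 100 nt was counted in any set, and members stand above the other sets in each longer range.

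The Cajal body RNAs took most of the members' reads. Scarna genes held 67.1 ± 2.82% of the members' expected counts, Snora genes 27.2 ± 2.22% and Snord genes 5.64 ± 0.599%. In TPM, which divides by effective length, Snora genes held 0.174 ± 0.0200% of the library and Scarna genes 0.165 ± 0.000989%, but this order held in replicate 1 alone (0.188% and 0.165%). In replicate 2 Scarna genes were higher (0.166% and 0.160%), as they were by counts in both libraries. Snord genes held 0.0522 ± 0.00455% of TPM, a value that rests on the 12 of 99 genes long enough to be counted. The 1409 other snoRNA and scaRNA entries, outside the symbol rule, held 0.452 ± 0.0122% of TPM, against 0.392 ± 0.0236% for the members. By expected counts they held 0.0206 ± 0.000983%, against 0.0389 ± 0.00215%. The 5 most counted members held 80.6% of the members' counts in replicate 1 and 82.4% in replicate 2.

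Scarna2 and Scarna10 led the Cajal body class. Scarna2 (chromosome 3, 108554338 to 108554751, 414 nt), a guide for ribose methylation of the U2 spliceosomal RNA, had 3496 counts in replicate 1 and 3109 in replicate 2, or TPM values of 533 and 565. Scarna2 has no host gene in the annotation and its sequence occurs in no other annotated transcript. Scarna10 (chromosome 6, 125186359 to 125186683, 325 nt) carries both kinds of domain and acts on the U5 spliceosomal RNA. It had 3232 and 2721 counts, or TPM values of 687 and 689. These nearly equal TPM values stood close to the highest of any member. Scarna13 (275 nt) followed with 789 and 643 counts, a TPM of 212 ± 4.49. Scarna6 (chromosome 1, 87784556 to 87784820, 265 nt) had 693 and 515 counts, a TPM of 189 ± 16.3. The short Cajal body members were far lower, with 7 and 11 counts for Scarna3a (140 nt) and 1 and 3 counts for Scarna3b (139 nt).

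Among the Snora genes, Snora74a and the Snora73 pair stood apart from the rest. Snora74a (chromosome 18, 35557032 to 35557227, 196 nt) had 1505 and 1063 counts and TPM values of 746 and 627. Snora73a and Snora73b are copies of the U17 RNA, which takes part in cleavage of the ribosomal RNA precursor rather than in pseudouridylation. Snora73b had 1078 and 814 counts, a TPM of 464 ± 35.0. Snora73a had 856 and 584 counts, a TPM of 352 ± 51.6. The near-identical pair shares reads, which the authors' quantification divided: the posterior SD listed for these counts was 6.61 and 5.18 for Snora73b and 7.12 and 5.79 for Snora73a, small beside the difference between the copies. Snora73b exceeded Snora73a 1.26-fold in replicate 1 and 1.39-fold in replicate 2.

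The other Snora genes were near the counting limit or below it. Snora23 had 27 and 21 counts, Snora68 28.8 and 14.6, Snora21 26 and 16, Snora44 20.03 and 12.3, and Snora78 17 and 14. These are guides for pseudouridylation of ribosomal RNA hosted by protein and non-coding genes, and their TPM means ran from 14.7 for Snora23 to 34.6 for Snora68. In all, 21 Snora genes had counts but fewer than 10 in a library and 12 had none. Every Snora gene had an effective length above 0. Of all annotated genes of at least 100 and under 150 nt, 3176 of 3534 had no count in either library.

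The counted box C/D RNAs were 4 of the 12 Snord genes of 100 nt or longer. Snord17 (238 nt) had 403 and 241 counts, TPM values of 139 and 99.2. Snord15b, a guide for ribose methylation of the large ribosomal RNA, had 260 and 221 counts, TPM values of 272 and 275. Its paralogue Snord15a, elsewhere in the same host gene, had 51 and 36 counts, TPM values of 50.02 and 42.05. Snord15b thus had 5.10 times the counts of Snord15a in replicate 1 and 6.15 times in replicate 2, at lengths of 145 and 148 nt.

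Members with roles in cleavage of the ribosomal RNA precursor ranged from abundant to barely counted. Snora73a and Snora73b led this group, and Snord22, which is needed for maturation of the small ribosomal RNA, had 48.2 and 27.4 counts, a TPM of 71.9 ± 19.6. Snord118, the U8 RNA needed for the large subunit, had 2 counts in each library at 135 nt, fewer than Snord22 at 126 nt. Snord13 had 0 and 1 counts at an effective length of 5 nt. The 4 Snord14 genes were all under 100 nt and had none. A gene with the symbol Snord3a is not among the members.

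**Figure D3:**
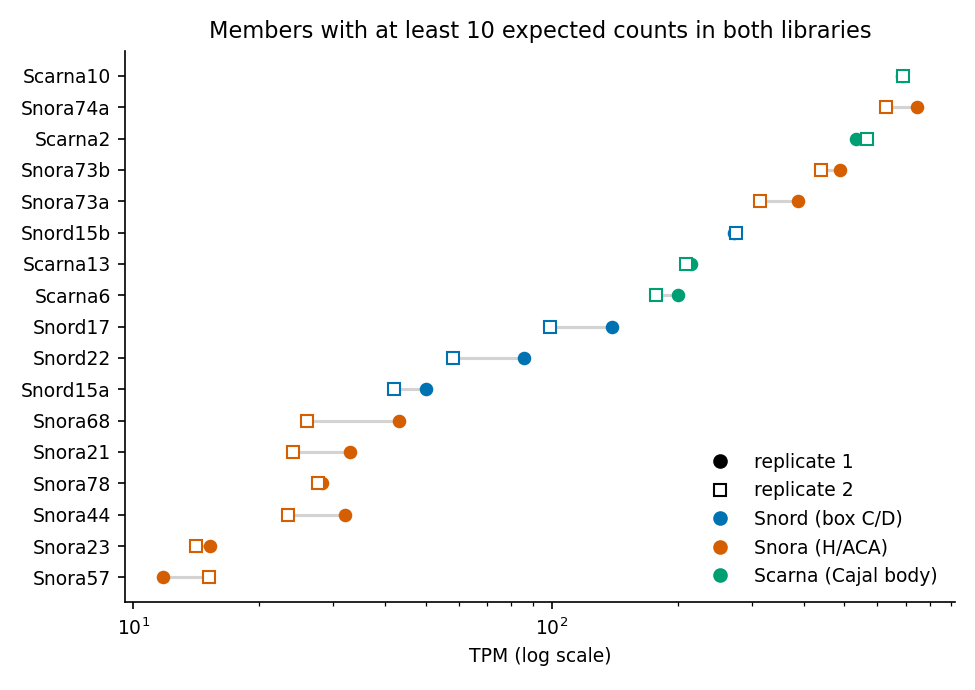
TPM (x axis, log scale) in replicate 1 (filled circles) and replicate 2 (open squares) of the 17 members with at least 10 expected counts in both libraries, coloured by class and ordered by mean. Scarna10 and Snora74a share the top with overlapping values, and the lowest 6 members are all Snora genes.

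The order of the upper levels was the same in both libraries apart from the leading pair. Mean TPM spanned 51.1-fold over the 17 counted members, from 13.5 to 688. Of 16 pairs of neighbours in this order 6 had overlapping values. Scarna10 and Snora74a overlapped, since Snora74a was above it in replicate 1 and below it in replicate 2. From Snora74a down to Snord15a no neighbouring pair overlapped. Snord15a and Snora68 overlapped, as did most neighbours below them. By reads per kilobase of full length, without the effective-length term, the first 3 places went to Scarna10, Scarna2 and Snora74a. Across the 43 members with any count, which share libraries and length limits, the CPM of the libraries had a Spearman correlation of 0.918.

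Among annotated transcripts, the authors' quantification listed little uncertainty in the counts of the counted members. Reads of unspliced host RNA that is not annotated were not assessed, and 8 of the counted members lie in host introns. Of the 17 counted members 9 had a posterior SD of 0 in both libraries. The whole sequence of 12 was found inside no other annotated transcript. That check does not see near-identical copies, and both Snora73 RNAs pass it. The largest posterior SD was 5.84% of the expected count in replicate 1 and 8.98% in replicate 2. Snord15b lies whole inside a retained-intron transcript of its host that received 56.5 and 54.4 counts, and Snord22 inside 3 transcripts of its host that together received 81.2 and 74.0. Over all 150 members, 71 lie whole inside another annotated transcript and 17 are identical to or contained in another member.

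Most members lie within longer genes, and the leading ones exceeded them in level. On the same strand 141 of the 150 members lie inside one of 90 host genes, 91 of the members with a protein-coding host of the highest CPM and 50 with a non-coding one. Of the 15 counted members with a host, 11 had a higher TPM than this host in both libraries. Measured per full length, 9 of the 15 exceeded every host. Scarna10 had 61.6 and 58.9 times the TPM of Ncapd2, a condensin subunit gene with a TPM of 11.4 ± 0.382. Snora73b and Snora73a lie within both Rcc1, which encodes a chromatin-bound exchange factor, at 5.94 ± 0.735 and the non-coding host Snhg3 at 10.5 ± 0.926. Snora74a lies within AC121821.1, a non-coding gene with a TPM of 7.38 ± 0.785, and within Gm28285 at 3.23 ± 0.198. Scarna13 exceeded its non-coding host Snhg10 62.8-fold and 44.3-fold. Scarna6 exceeded Atg16l1, an autophagy gene, 7.06-fold and 5.71-fold.

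Several counted members stood closer to or below their hosts, among them those hosted by ribosomal protein genes. Snord15b had 2.71 and 2.57 times the TPM of Rps3 (104 ± 4.71), but 0.917 times its level per full length, so its place relative to the host depends on the unit. Snord15a had 0.498 and 0.393 times the TPM of Rps3. Snora21 stood at 0.222 and 0.171 times Rpl23 (145 ± 5.15). Snora23 stood at 0.357 and 0.322 times Ipo7, an import receptor gene (43.3 ± 0.856). Among the other hosts, Snord17 exceeded the sorting nexin gene Snx5 3.93-fold and 2.78-fold, Snord22 exceeded the non-coding Snhg1 9.15-fold and 5.45-fold, and Snora44 exceeded Snhg12 1.97-fold and 1.18-fold in TPM. Per full length the excess was smaller, 2.01-fold for Snord17 and 1.74-fold for Snord22, and Snora44 was below Snhg12, at 0.418 times its level. Snora78 had 17 and 14 counts where its non-coding host Snhg9 had 2 and 0.

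**Figure D4:**
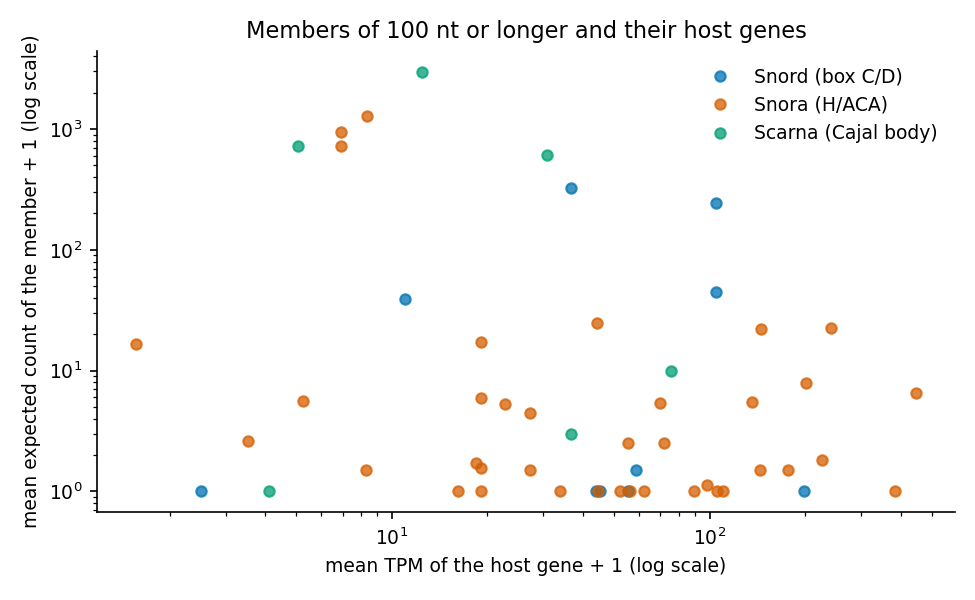
Mean TPM of the host gene plus 1 (x axis, log scale) against mean expected count of the member plus 1 (y axis, log scale) for the 54 members of 100 nt or longer with a host gene, coloured by class. The 6 members with the most counts have mean host TPM values of 29.8 or less.

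Member and host levels were also set side by side. Host TPM and member CPM were compared over the 54 members of 100 nt or longer with a host. Their Spearman correlation was -0.22 in replicate 1 and -0.20 in replicate 2. With host CPM in place of host TPM it was -0.33 and -0.27. These are weak negative values in sparse counts, given without a test. These points share libraries, and several share a host. Of the 14 whose host reached a TPM of 100 in each library 4 were counted, a share close to the 15 of all 54. The hosts of the short members were expressed although the members could not be counted: of the 87 members under 100 nt with a host, 86 had a host that reached a TPM of 1 in each library and 41 a host that reached 100.

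The imprinted Snord116 array is the clearest case of this kind. The symbol rule found 17 Snord116 genes between 59861731 and 59904848 on chromosome 7, all 94 nt long, with 4 distinct sequences, 1 of them shared by 14 genes. They had 0 counts in both libraries at an effective length of 0. Their common host, the non-coding Snhg14, had 17780 and 17613 counts and TPM values of 839 and 980. Snord64 and Snord107 of the same imprinted region, 67 and 70 nt long, also had an effective length of 0, within a host listed as Gm38393 with a TPM of 36.8 ± 1.63. Genes with the symbols Snord113, Snord114 and Snord115 are not among the members.

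Genes of the core, Cajal body and assembly proteins were all expressed, with mean TPM values from 2.69 for Shq1 to 50.5 for Nop56. The box C/D core proteins stood at a TPM of 24.7 ± 0.806 for the methyltransferase Fbl, 50.5 ± 2.16 for Nop56, 22.4 ± 2.88 for Nop58 and 46.5 ± 3.93 for the RNA-binding Snu13. The H/ACA core proteins had 13.2 ± 0.453 for the pseudouridine synthase Dkc1, 19.3 ± 0.0141 for Gar1, 19.07 ± 2.70 for Nhp2 and 23.4 ± 0.806 for Nop10. Of the Cajal body proteins, coilin (Coil) had 9.32 ± 0.304, Wrap53, which brings RNAs to the Cajal body, 4.39 ± 0.184, and Smn1, which assembles spliceosomal particles, 16.5 ± 1.20. The 10 assembly factors ranged from 2.69 for Shq1 to 19.8 for Pih1d1. Between them lay Ruvbl1 with 17.2 ± 1.33, Nolc1 with 17.1 ± 0.587, Znhit3 with 13.9 ± 1.54, Ruvbl2 with 13.9 ± 0.721, Rpap3 with 12.1 ± 0.905, Znhit6 with 8.12 ± 1.17, Naf1 with 6.46 ± 0.339 and Nufip1 with 3.24 ± 0.0707.

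Between the libraries the counted members were mostly lower in replicate 2, by modest factors. A ratio was taken of CPM in replicate 2 over replicate 1 for the 11 members with a mean CPM of at least 1, and its exact 95% interval covers counting error only. With 1 group and 2 libraries there is no p-value. Of the 11 members 10 were lower in replicate 2, while 45.4% of the 15682 annotated genes at that level were lower, as were 65.4% of the 234 of them that are 100 to under 450 nt long. The median log2 ratio was -0.42 over 4 Snord, -0.30 over 3 Snora and -0.07 over 4 Scarna genes, against 0.02 over all annotated genes and -0.08 over those of 100 to under 450 nt. No member differed 2-fold in either direction, where 0.548% of annotated genes were at least 2-fold higher and 0.529% at least 2-fold lower, and both shares were 2.56% among those of 100 to under 450 nt.

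The counting interval lay below 1 for 5 of the 11 members and above 1 for none. The background for an interval below 1 was 13.2% of annotated genes and 29.1% of those of 100 to under 450 nt, and for one above 1 it was 18.2% and 10.3%. Snord17 had a ratio of 0.689 (0.585 to 0.810). The 3 Snora genes were close to each other, with 0.785 (0.706 to 0.874) for Snora73a, 0.813 (0.751 to 0.881) for Snora74a and 0.869 (0.793 to 0.954) for Snora73b. Scarna6 had 0.856 (0.762 to 0.961). The largest Cajal body RNAs were alike within counting error, at 1.02 (0.976 to 1.08) for Scarna2 and 0.970 (0.921 to 1.02) for Scarna10. Snord15b had 0.979 (0.815 to 1.18) beside 0.813 (0.515 to 1.27) for Snord15a, so a difference between these ratios was not detectable at this depth. Snord22 had the lowest ratio, 0.655, with an interval of 0.389 to 1.06.

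**Figure D5:**
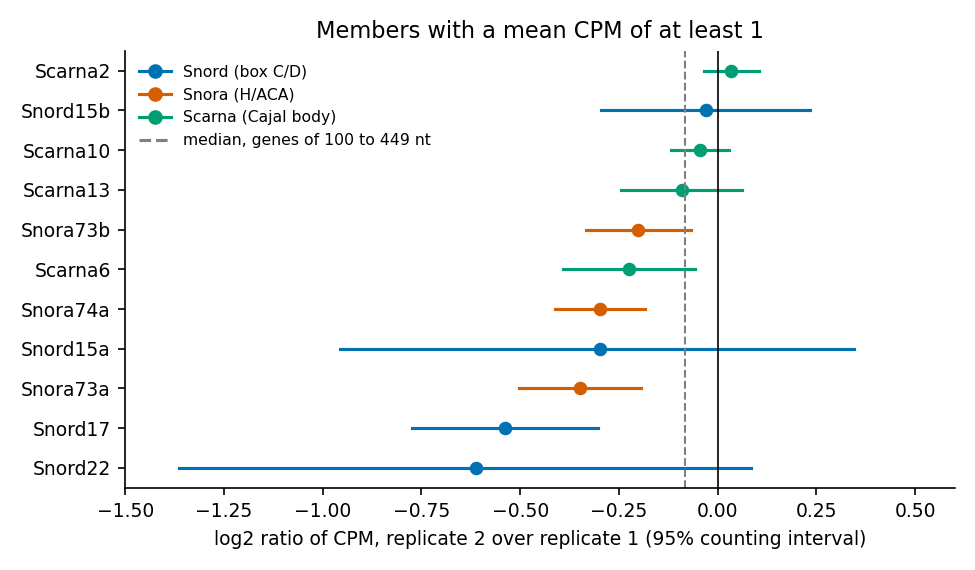
log2 ratio of CPM in replicate 2 over replicate 1 (x axis) of the 11 members with a mean CPM of at least 1, with exact 95% counting intervals, coloured by class; the solid line marks no difference and the dashed line the median of annotated genes of 100 to under 450 nt. Scarna2 is the one member above 0, and 5 intervals lie wholly below 0.

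The log2 ratios of hosts and binding proteins lay on both sides of 0. The log2 ratio of Snx5, the host of Snord17, was 0.03, and that of Rcc1 and Snhg3, the hosts of the Snora73 pair, was -0.13 and 0.13. Of the hosts of Snora74a, AC121821.1 was at -0.24 and Gm28285 at -0.06, beside -0.30 for Snora74a itself. A transcript of AC121821.1 contains the whole Snora74a sequence, so they can share reads. Snhg1 was at 0.13 beside -0.61 for Snord22, Atg16l1 at -0.01 beside -0.22 for Scarna6, and Snhg10 at 0.04 beside -0.09 for Scarna13. Rps3 was at -0.02 beside -0.03 for Snord15b and -0.30 for Snord15a. Ncapd2, the host of Scarna10, was at 0.16, beside -0.04 for Scarna10. The box C/D core list had a median log2 ratio of -0.03, the H/ACA core list 0.02, the Cajal body list -0.12 and the assembly list 0.05. The 29 other snoRNA and scaRNA entries at that level had a median of -0.17 and 19 of them were lower in replicate 2, which is 65.5% and near the 65.4% of all annotated genes of 100 to under 450 nt. The 23 snRNA entries had a median of -0.34, with 19 lower. Cell type markers also differed, with summed TPM of 97.4 and 5.79 for the choroid plexus markers Ttr and Kl, of which Ttr alone had 96.03 and 4.79, 204 and 141 for 3 striatal markers and 1082 and 1705 for 3 myelin markers. The part of these in the ratios of the members was not tested. In whole tissue, fewer cells of a type and less RNA per cell cannot be told apart.

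The second quantification of the same libraries saw almost none of these RNAs. In the FASTQ-based table Scarna2 had 1073 and 1107 estimated counts, Scarna10 had 0 and 1, and the other 148 members had 0 in both libraries. Scarna2, at 414 nt, is the one member longer than 378.5 nt and 342.06 nt, the fragment lengths implied by the effective lengths of long transcripts in that table for replicates 1 and 2. Scarna10, at 325 nt, is shorter than both. The level of every member but Scarna2 therefore rests on the alignment-based table alone. For Scarna2 the tables differed, with a mean of 113 CPM from alignments and 36.9 CPM from FASTQ-based counts. The cause of this difference was not tested.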

How the data were processed

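The 2 total RNA libraries from left cerebral cortex were used as 1 group. Each library was quantified by the authors on mm10 with GENCODE M21, from transcriptome alignments and again straight from the reads, per the text deposited beside the tables. Which tools they used is not given in the sources used here. Alignment-based gene tables deposited by the authors hold expected counts and TPM, and the deposited FASTQ-based tables hold estimated counts and TPM per transcript, summed here per gene. Depth was 31191535 and 27079700 expected counts over annotated genes, which alone entered library sizes; 26248 numbered entries that name no gene held 6.39e-06% and 1.81e-05% of counts. All members matched M21, which gave coordinates, sequences and hosts (same-strand genes that contain the member).

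Members were called counted at 10 or more expected counts in both libraries. Between libraries a 2-fold rule was applied at a mean CPM of at least 1, with exact binomial 95% intervals on rounded counts. TMM factors (edgeR 4.0.16), DESeq2 1.42.0 size factors and spike-in totals were alternative scalings; no count test was run because 1 group has no contrast. The rules were tested on simulated data. Scripts ran in R 4.3.3 and Python 3.11.15 with scipy 1.17.1, pandas 2.3.3, numpy 2.4.6, matplotlib 3.10.9 and Biopython 1.88. Genes were named by rule: the 8 highest members of each class, lists for ribosomal RNA processing, imprinted arrays, binding and assembly proteins, the longest and shortest member, and hosts; the plot of levels also shows Snora57. The members and lists were chosen with earlier results of these data known, and the length window of 100 to under 450 nt after seeing the values. The host of 1 counted member is not reported here.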

Additional observations from a re-analysis of the deposited data

How the results depend on the processing

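The 44 members of 100 nt or longer with fewer than 10 counts in a library have no precise level, and the parts of depth, effective length and read assignment in this were not tested. The 89 shorter members could receive no counts. With a TPM limit of 1 in place of 10 counts, 33 members were called, 22 of them Snora. With at least 3 expected counts 15 Snora genes were called. FASTQ-based counts called 1 member, which was 1 Scarna gene, with 0 Snord and 0 Snora genes. With replicate 1 or replicate 2 left out, 17 to 18 members were called, of which 4 to 5 were Scarna, 9 Snora and 4 Snord; the shares of expected counts ranged from 0.00195% to 0.00245% for Snord, 0.00961% to 0.0117% for Snora and 0.0259% to 0.0263% for Scarna. Ratios between the libraries need both and have no such value. As a share of the library, Snord, Snora and Scarna genes held 0.0522%, 0.174% and 0.165% of TPM, and 0%, 0% and 0.00369% of FASTQ-based counts, against 0.00220%, 0.0106% and 0.0261% of expected counts. With 2 libraries each alternative scaling moves the log2 ratio of every gene by 1 constant. This was -0.037 for TMM, -0.046 for DESeq2 size factors and -0.109 for spike-in totals. The negative medians of the 3 classes could therefore not change sign, and the medians of all annotated genes move by the same amount. The median log2 ratio was -0.41 for Snora by spike-in totals, a scaling added after seeing the data. For Scarna it was -0.18 by the same scaling, -0.11 by DESeq2 size factors and -0.0049 with every member that had 1 count in either library. That looser filter gave 6 members at least 2-fold higher and 9 at least 2-fold lower. All of these had fewer than 10 counts in each library, such as Snora41 with 0 and 1. At a mean CPM of 1, 1 member was at least 1.5-fold lower. The share of all annotated genes was not taken under the looser filter or at 1.5-fold, so these numbers are not read as results about the members. Apart from the scalings, which act by the constants given, the cause of the changes under other settings was not tested. No paired analysis was possible because the samples form a single group.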
